A study of Daphnia magna with 20 samples.

Results

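The 150 genes described here were the genes of *D. magna*, a freshwater crustacean, whose transcripts were abundant in adult females just after a moult (F1) and scarce in the middle (F2) and at the end (F3) of the same intermoult cycle. They were selected on the stage values of the deposited array data. For each gene with 3 or more probes, the 7 stage values were sorted and the widest gap between neighbours separated a high set of stages from a low set. Of the 40786 such genes, 4275 had F1 in the high set and F2 and F3 in the low set. Of these, 1339 had at least 2 probes marked well above background by the scanner software in at least 2 F1 arrays, and the 150 with the widest gap were kept. Differences of F1 from F2 and F3 therefore chose the genes and are given below as a description, with no test. The gap was 6.62 log2 units in the gene ranked 1, 2.17 and 2.15 in the last 2 genes kept, and 2.12 and 2.10 in the first 2 left out.

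RNA of whole animals or embryos of clone F, which reproduces without mating, was hybridised to single-colour Agilent arrays. E1 were embryos under 12 h old, E3 were embryos of 60 h shortly before leaving the brood pouch, and J were juveniles of 4 days with no visible ovary. F1, F2 and F3 were adult females of 15, 16 and 18 days according to the labels, whose embryos were flushed out of the brood pouch before sampling. M were adult males of 16 days in the labels, obtained from mothers exposed to methyl farnesoate, a crustacean hormone. Other sources of the study give other ages for females and males. There were 3 arrays per stage and 2 for males, on 5 slides of 4 arrays, and since no source says how many animals a sample pooled, the spread between arrays may in part be technical. The ovary, gut, epidermis and muscle of a female were measured together, so fewer cells of a type and less RNA per cell cannot be told apart. Slide 1, which held E1 replicate 2, E3 replicate 2, F1 replicate 3 and M replicate 1, had the lowest share of probes well above background, 17.28 to 25.36% compared with 47.1 to 80.82% on the other slides. The main counts are given without these arrays as well.

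In parthenogenetic daphnids moulting and reproduction run on 1 clock. A female moults, lays the eggs of the next brood into the emptied pouch, then grows a new cuticle under the old one while the ovary loads the following eggs with yolk, until the brood is released and she moults again. The steroid ecdysone governs such cycles in arthropods. It rises before the moult and falls again around it, and sets of genes for cuticle formation, hardening and digestion follow in waves. F1 samples this cycle right after the moult, F2 between moults and F3 before the next one. The genes of the array keep identifiers of a transcript assembly, and none of the 41316 gene models matched the table of gene names used here. The paper states that most genes of the array were annotated, but its annotation was not used here. No function is therefore given to any of the 150 genes. They are described by their place in the ranking, their pattern over stages and 2 identifiers. Sequences of the genes or probes were not analysed here.

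Most of the 150 genes did not peak at the beginning of the intermoult cycle when all stages were considered. F1 had the highest value of all 7 stages in 50 genes, J in 73, M in 19, E3 in 6 and E1 in 2. J shared the high set with F1 in 144 of the 150 genes, M in 135, E3 in 94 and E1 in 6. The F1 peak holds among the female stages only, and in what follows the genes are called F1-high genes. The commonest pattern, with 82 genes, placed E3, J, F1 and M together against E1, F2 and F3. In 44 genes the high set was J, F1 and M. The remaining genes had E1, E3, J, F1 and M (6 genes), E3, J and F1 (6), J and F1 (6), F1 and M (3) or F1 alone (3) in the high set. F2 and F3 were the only stages low in 6 of the 150 genes. Without the 4 arrays of slide 1, 142 of the 150 genes still had F1 in the high set and F2 and F3 in the low set, and the 2 commonest patterns held 69 and 51 genes. J was then in the high set of 144 genes, M of 136 and E3 of 80, and the highest stage was J in 79 genes, F1 in 46 and M in 21.

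**Figure D1:**
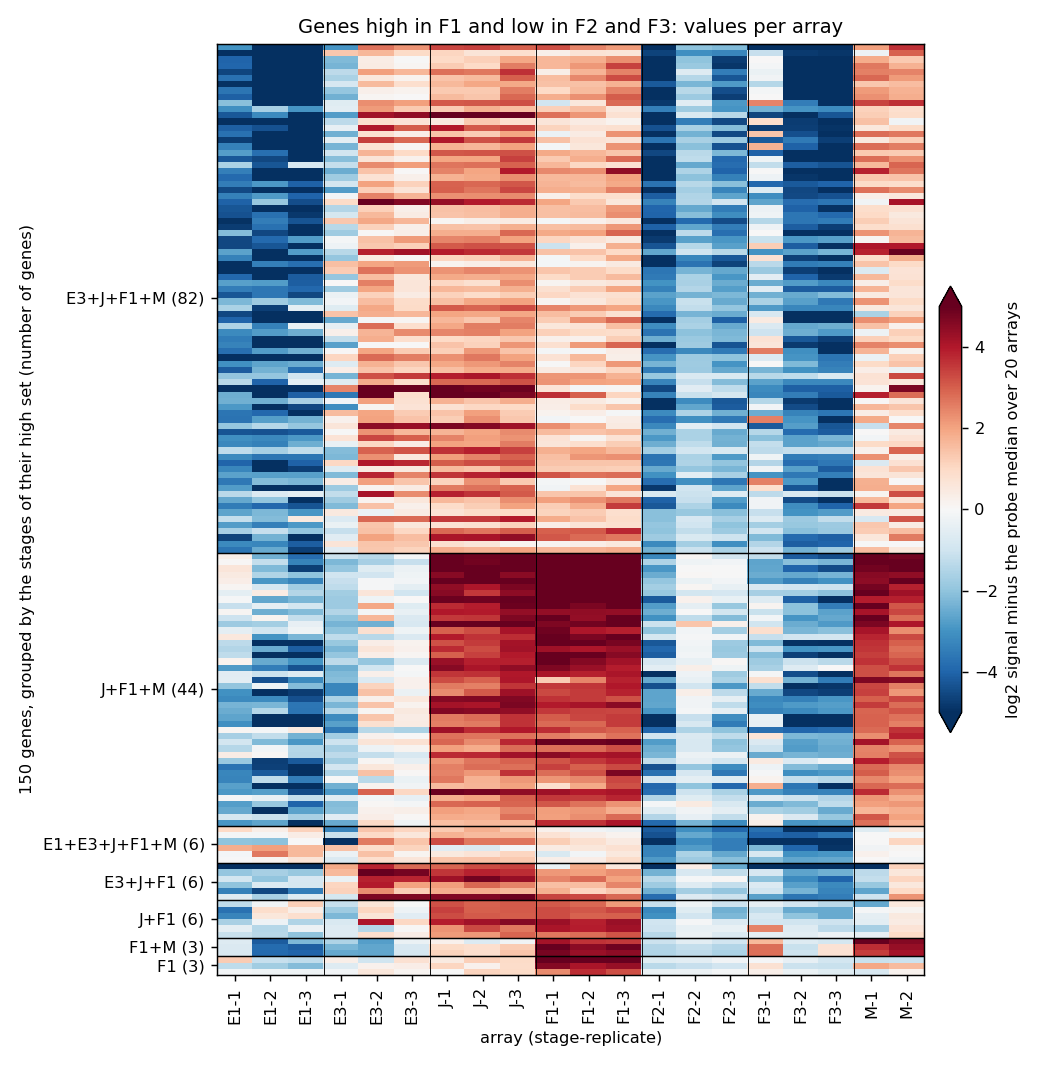
Values of the 150 F1-high genes (rows, grouped by the stages of their high set, with the number of genes) in the 20 arrays (columns). Colour gives the log2 signal minus the median of the probe over the 20 arrays, cut at 5 units either way. Most rows are blue in E1, F2 and F3 and light to dark red in J, F1 and M, while E3 splits the 2 largest groups of 82 and 44 genes.

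The share of patterns depended on how wide a gap was asked for. Among all 1339 genes that met the rule before the limit of 150, F1 stood alone in the high set in 191 (14.26%), compared with 3 of 150 (2%) here. E3, J, F1 and M formed the high set in 230 of the 1339 (17.18%) and in 54.67% of the 150. J was in the high set of 61.54% of the 1339 genes and of 96% of the 150, and M of 56.61% and 90%. The genes with the widest gap between high and low set were thus mostly those with juveniles and males beside F1 in the high set. The gap is the step between the nearest stages of the 2 sets and not the difference of F1 from F2 or F3.

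Over the 150 genes, the median of the values, in log2 signal relative to each probe's median of the 20 arrays, was 2.00 in F1, -2.25 in F2 and -2.81 in F3. F1 was above F2 by a median of 4.59 log2 units (range 2.35 to 8.09) and above F3 by 4.83 (2.28 to 10.09), compared with medians of 0.071 and 0.012 over all 40786 genes. Array by array, the medians of the 150 genes were 1.80, 2.01 and 2.30 in F1. They were -3.32, -1.23 and -2.17 in F2 and -1.01, -3.25 and -3.54 in F3. Every F1 array lay above every F2 and F3 array in 137 of the 150 genes. This held for 7.41% of all genes, but the choice of genes used these values and nothing is read from the comparison. Within slides, F1 was above F2 by a median of 4.35 on slide 4 and 3.48 on slide 5, and above F3 by 5.83 on slide 4, in all 150 genes each time. No probe of the 150 genes was saturated on any array. Each gene had at least 1 probe well above background in some F2 array, and 2 genes had none in any F3 array.

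The 150 genes had 594 probes, of which 583 were higher in F1 than in F2 and F3, and in 139 genes this was so for every probe. The stage values were medians over these probes, so these counts describe the choice and add nothing to it. The probes of a gene differed in size, and the range between them of the F1 excess had a median of 1.60 log2 units. When 150 genes were chosen anew without 1 F1 array, the array left out lay above the middle of the gap in 146, 149 and 147 of them, for F1 replicates 1, 2 and 3. It lay above every F2 and F3 array in 134, 139 and 147. All F2 and F3 arrays had helped to choose these genes, and the share over all genes was not counted for single F1 arrays. The counts are therefore a description. These choices shared 145, 146 and 144 genes with the 150.

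The gene with the widest gap, velb9ptf005k47Loc357t1, was high in F1 alone. Its log2 signal was 13.03, 13.05 and 11.76 in the F1 arrays. The J arrays had 5.63, 6.46 and 5.75. All other arrays lay between 3.04 and 6.24. F1 had a mean of 12.61 ± 0.74 (SD, n = 3), J of 5.95 ± 0.45 and F2 of 4.24 ± 0.63, and no array of another stage reached the F1 range. The F1 signal was 102 times that of J. All 12 probe readings in F1 were well above background, compared with 9 of 12 in J, 5 of 12 in F2, 4 of 12 in F3 and 1 of 8 in M, and with 5 of 12 in E1 and E3. No fold is given for those stages, whose levels sit near the limit of the measurement and have no order. Each of the 4 probes of the gene was higher in F1 than in F2 and F3.

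The gene ranked 2, velb9ptr063k97Loc40t1, had the commoner pattern with high levels in J and M too. The F1 arrays gave log2 signals of 14.87, 14.60 and 14.23. The J arrays had 13.09, 12.70 and 13.43 and the M arrays 13.81 and 12.68. J and M overlapped, and both lay below every F1 array. In F2 the arrays had 4.34, 8.00 and 6.78, in F3 they had 6.74, 3.28 and 4.18, in E3 6.58, 6.76 and 7.69, and in E1 8.16, 4.04 and 3.93. The mean in F1 was 14.57 ± 0.32 (SD, n = 3), which was 293 times the F2 signal, 2.82 times that of J and 2.51 times that of M. All 12 probe readings of F1 and J and all 8 of M were well above background, compared with 9 of 12 in F2, 8 of 12 in E3, and 5 of 12 in F3 and in E1, for which no fold is given. F2, F3 and E1 spread over several log2 units and overlapped. J exceeded E3 by 6.07 log2 units, the step that ranked the gene, so it is given with no test. J minus M was -0.17 (SE 1.20, adjusted p = 0.931 in limma with Benjamini-Hochberg adjustment over 20941 genes).

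**Figure D2:**
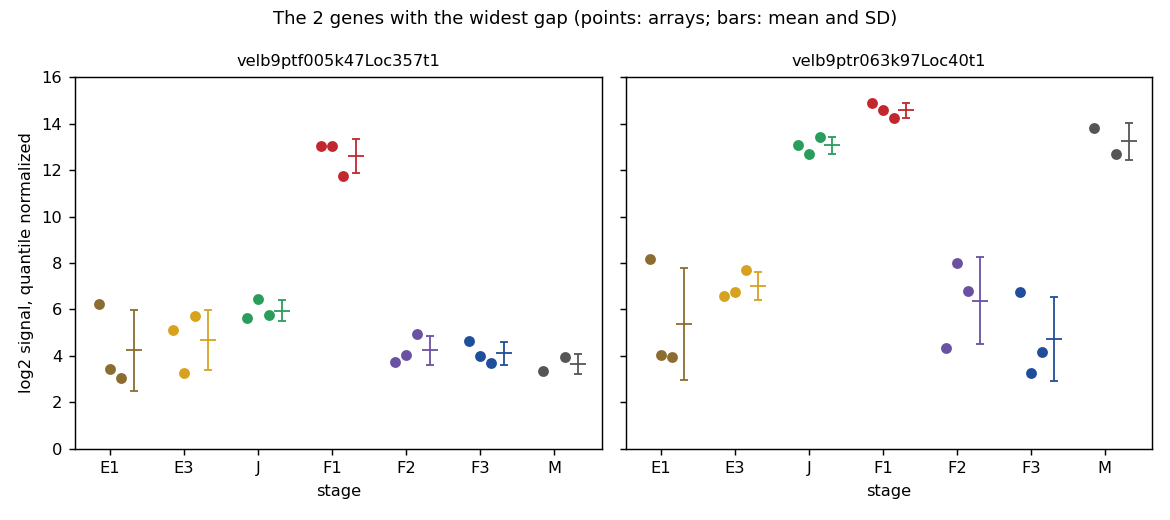
Log2 signal after quantile normalization of the 2 genes with the widest gap, by stage. Points are arrays, bars the mean and SD. F1 stands alone at 12.61 in the left panel, while J and M stand with F1 between 12.68 and 14.87 in the right panel.

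The first-ranked gene of each other pattern, picked after the values were seen, shows how the levels lay. In the group of 82 genes this was the gene ranked 10, with F1 signals of 15.43, 14.74 and 14.45 and J signals of 15.60, 15.60 and 15.18. E3 had 9.30, 14.97 and 14.36, so E3 replicate 1 stood far below the other two. F2 had 5.31, 10.27 and 10.00, F3 5.79, 5.69 and 6.07. Males had 14.40 and 15.78, to either side of the J range.

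The gene ranked 21 led the 3 genes high in F1 and M. It had 14.03, 13.49 and 13.38 in F1 and 14.30 and 13.35 in M. J lay well below, at 8.49, 8.12 and 9.02, and overlapped with F2 at 8.68, 9.31 and 8.73. F3 had 11.11, 9.20 and 8.90, with replicate 1 the highest. The gene ranked 35, high in E3, J and F1, had 12.76, 14.57 and 13.65 in E3, 13.82, 14.10 and 14.34 in J and 10.51, 12.67 and 11.34 in F1. F2 spread from 4.62 to 11.19, and its highest array overlapped with F1. The 2 male arrays disagreed, with 3.62 on slide 1 and 12.29 on slide 2, so the low set held males because of the former. Without the arrays of slide 1, none of the 150 genes had the pattern of E3, J and F1.

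The gene ranked 42 was high in all stages but F2 and F3. Its signals were 10.04, 9.55 and 9.71 in F1 and 10.85, 10.20 and 11.01 in E1. E3 replicate 1, at 6.31, stood below the other E3 arrays at 11.32 and 10.68. F2 had 5.38, 6.72 and 5.87 and F3 6.13, 4.18 and 4.52, both below the F1 and E1 arrays. The gene ranked 57, high in J and F1, had 9.70, 9.72 and 9.77 in J and 9.33, 9.13 and 8.33 in F1. Its F2 arrays lay between 5.03 and 5.93 and its F3 arrays between 4.93 and 5.93. E1 and M were less even, from 5.35 to 8.09 and from 3.19 to 6.65.

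Juveniles had about the F1 level over the 150 genes, with a median difference J minus F1 of 0.25 log2 units, and J was the higher stage in 92 genes. Every J array lay above every F1 array in 57 genes (38%, compared with 17.4% of all genes) and below in 22 (14.7%, compared with 17%). The arrays of J and F1 overlapped in the other 71 genes. On slide 5, which held an array of each, the difference had a median of 0.22 and J was higher in 87 genes, and without slide 1 J was higher in 99. Males were lower, with a median M minus F1 of -0.44. Every M array was above every F1 array in 12 genes (8%, all genes 15.8%), below in 68 (45.3%, all genes 19.7%), and overlapping in 70. Within slide 1 the median was -0.58, and without slide 1 M was above F1 in 57 genes, compared with 43 with all arrays. Late embryos had a median E3 minus F1 of -1.79, with every E3 array above every F1 array in 8 genes (5.33%, all genes 17.1%) and below in 77 (51.3%, all genes 18.3%). Without slide 1 the stage medians were -0.31 in E3 and 1.81 in F1. The F1 values took part in choosing the genes, so these counts are a description.

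The 2 largest groups had different centred F1 values, which do not compare signal levels between the groups. In the 82 genes with E3 in the high set the median was 1.27 in F1, 1.99 in J, 1.14 in M and 0.76 in E3, compared with -4.06 in E1, -2.71 in F2 and -3.18 in F3. In the 44 genes with E3 in the low set it was 4.16 in F1, 3.76 in J and 3.21 in M, compared with -0.58 in E3, -2.07 in E1, -1.27 in F2 and -2.03 in F3. The values are relative to the median of the probe over 20 arrays, so a gene high in 4 stages has a smaller distance from 0 on the upper side than a gene high in 3. The 3 genes high in F1 alone had medians of 4.34 in F1 and 0.63 in J, with every other stage between -0.38 and -0.01.

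**Figure D3:**
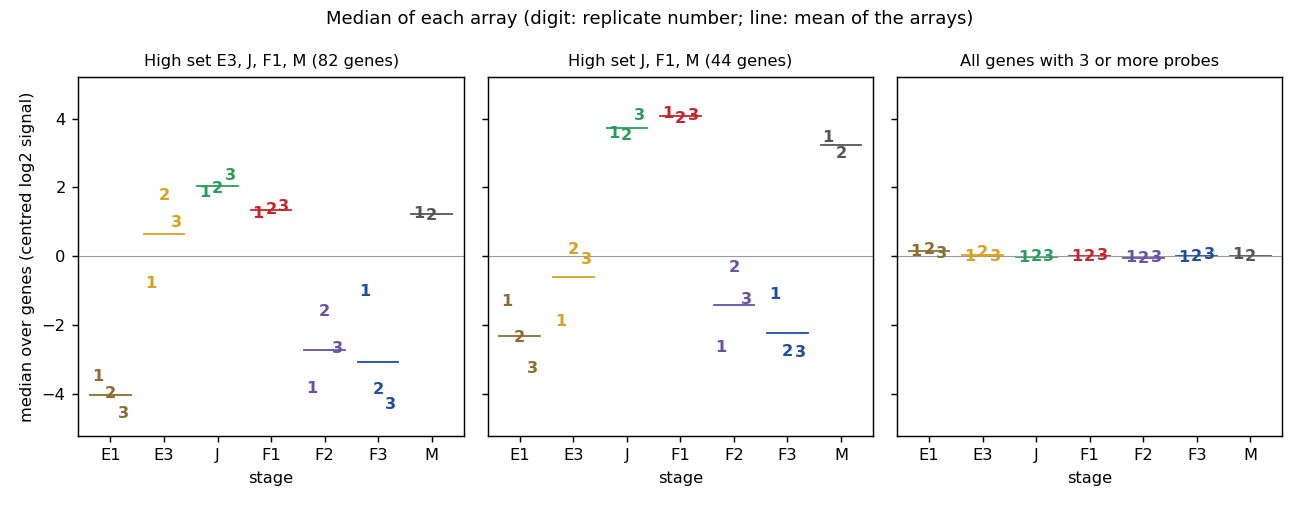
Median over genes of the centred log2 signal in each array, for the 82 genes high in E3, J, F1 and M, the 44 genes high in J, F1 and M, and all 40786 genes. Digits are replicate numbers and lines the mean of the arrays of a stage. F1 arrays of the 82 genes lie between 1.25 and 1.45, F2 replicate 2 (-1.60) and F3 replicate 1 (-1.02) lie above the other arrays of their stages, and the medians of all genes stay near 0.

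In F2, F3, E3, E1 and, by a smaller margin, J the F1-high genes varied more between replicates than all genes did. The median SD over the 3 arrays of F2 was 0.98 log2 units for the 150 genes and 0.13 for all genes, and in F3 it was 1.07 compared with 0.20. In E3 it was 1.26 compared with 0.42, in E1 0.96 compared with 0.52. In F1 it was 0.32 compared with 0.34, in J 0.28 compared with 0.17, and in M 0.46 in both sets.

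This spread was shared by the genes. F3 replicate 1 was the highest of the F3 arrays in 127 of the 150 genes (84.7%), compared with 25.6% of all genes. F2 replicate 2 was the highest of its stage in 134 genes (89.3%, compared with 31%) and F2 replicate 1 the lowest in 141 (94%, compared with 31.9%). E3 replicate 1 was the lowest of its stage in 136 genes (90.7%, compared with 31.9%). Genes of 1 array are not independent of each other, and these positions were picked after the values were seen. The share of all probes well above background was 59.01% on F3 replicate 1, compared with 56.09 and 47.1% on the other F3 arrays. It was 63.74% on F2 replicate 2, compared with 61.55 and 62.94%. On E3 replicate 1 the share was 53.04%, compared with 22.13% on replicate 2 and 54.22% on replicate 3. The part of detection and of slide in this spread was not tested. The paper's methods give a time window within the cycle for each female stage, but no time for each sample.

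The 4 comparisons that follow leave F1 out and were fitted in limma over 20941 genes. They are not independent of the choice of genes. The values of E1, E3, J and M entered the gap that ranked the genes, often as the step from E3 to J or M, and F2 and F3 had to fall into the same set. For the main fit, the shares of all genes are printed beside the counts, and nothing is read from the distance between them. Counts under other settings are given for the 150 genes alone, without the share of all genes. A change in such a count is therefore not read as particular to these genes. A gene was called at an adjusted p under 0.05 and a change of at least 1.5-fold. The filter, 2 probes above the random probes in every array of a stage, was passed by 150 of the 150 genes. Since they had been chosen for detection in F1, this count says nothing about them.

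From E1 to E3, most F1-high genes were higher in the late embryos. The change was called in 111 of the 150 genes (74%), compared with 29.3% of all genes tested, and in the opposite direction in 1 gene (0.667%), compared with 36.2%. The median difference was 3.88 log2 units in these genes and -0.26 over all genes tested. All 82 genes of the pattern with E3, J, F1 and M were called, with differences from 1.99 to 9.98, but their pattern was defined by high E3 and low E1 values. In the 44 genes with both embryo stages in the low set, where the pattern leaves the order of E3 and E1 free, E3 was higher in 21, lower in 1, and the median was 1.67. Within slide 1, which held an array of each, E3 minus E1 had a median of 4.90 and was positive in 142 genes. Without the arrays of slide 1, 70 genes were called higher in E3 and 2 in E1.

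Between late embryos and juveniles, more of the F1-high genes were higher in the later stage. J was higher than E3 in 60 genes (40%, compared with 21.8% of all genes tested) and lower in 3 (2%, compared with 13.9%), with a median of 2.21 compared with 0.23 over all genes. Of the 60, 40 were among the 44 genes with J, F1 and M and 6 among the 6 genes with J and F1 in the high set, patterns defined by high J and low E3 values. Where E3, J, F1 and M were all in the high set, 9 of 82 genes were called higher in J and 2 in E3, and the median was 1.58. The low E3 replicate 1 was the only E3 array on a slide with a J array, slide 5, where the median difference was 3.70 and J was higher in 145 genes. Without E3 replicate 1 the median was 1.28. Leaving out any 1 array left between 46 and 73 genes called, and without the arrays of slide 1, 76 were called higher in J and 2 in E3.

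Between juveniles and males, the share of F1-high genes called higher in J was close to that of all genes. J was called higher than M in 26 (17.3%), near the 18.4% of all genes tested, and lower in 3 (2%), compared with 9.11%. The median difference was 0.61 log2 units, compared with 0.39 over all genes. In the 44 genes high in J, F1 and M, the median was 0.20, with a range of -1.34 to 1.73, and in the 82 genes with E3 as well, 12 were called higher in J and the median was 0.70. The genes higher in M were the 3 with F1 and M in the high set, which were chosen as such. Of the 26 higher in J, 6 were the 6 genes with E3, J and F1 in the high set. Another 5 were among the 6 genes with J and F1. Both patterns were defined by high J and low M values. The count depended on single arrays: 13, 10 and 12 genes in all were called without J replicates 1, 2 and 3. Leaving out a male array leaves a single one, so no count is given for that. Within slide 2, J minus M had a median of 0.74 and was positive in 125 genes.

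Between F2 and F3, few of the F1-high genes could be told apart. None was called higher in F3 by limma, compared with 1.13% of all genes tested, and 3 were called higher in F2 (2%), compared with 5.95%. At an unadjusted p under 0.05 there were 23 genes, and the test named in the study's methods, run on the same values, called 1 after adjustment, higher in F2. The median of F3 minus F2 was -0.40 log2 units, compared with 0.18 over all genes, and F2 was the higher stage in 99 genes. The direction differed between slides. On slide 3, with F3 replicates 1 and 2 and F2 replicate 1, F3 was higher in 121 genes with a median of 0.78, and on slide 4, with the remaining F3 array and F2 replicate 3, F2 was higher in 133 with a median F3 minus F2 of -1.60. With slide as a block no gene was called. The direction of the calls also turned with single arrays. Without F3 replicate 2, 3 genes were called higher in F3 and none in F2, and without F2 replicate 2, 1 gene was called higher in F3. Without F3 replicates 1 and 3, 7 and 1 were called, and without F2 replicates 1 and 3, 6 and 0, all higher in F2. It was 6 without E1 replicate 1 or E1 replicate 2, and 9 and 5 without E3 replicates 1 and 2, arrays that enter only through the shared spread.

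**Figure D4:**
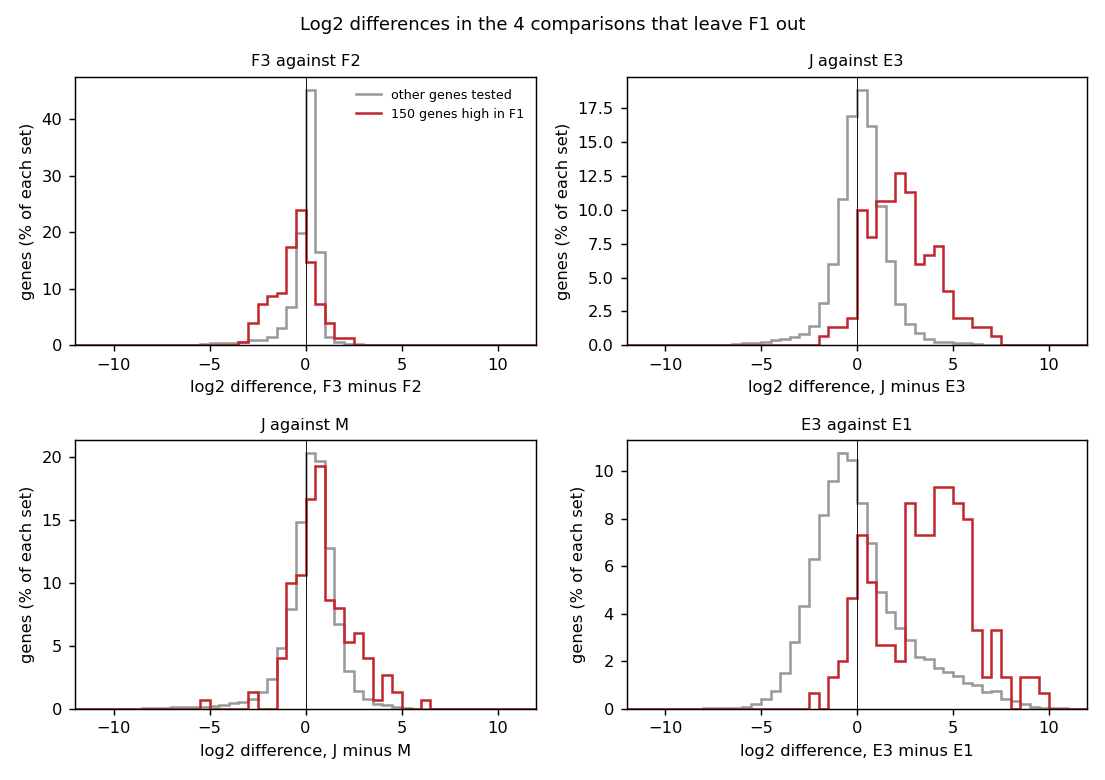
Log2 differences of the 150 F1-high genes (red) and of the other genes tested (grey) in the 4 comparisons, as the percentage of each set per 0.5 log2 units. The F1-high genes lie to the right of the other genes in E3 minus E1 (median 3.88) and J minus E3 (2.21), and near them in J minus M (0.61) and F3 minus F2 (-0.40).

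The identifiers of the 150 genes named 147 loci of the transcript assembly. Identifiers were counted as the same locus if they differed only in their last number. By this count 3 loci held 2 of the genes each, in each case with the same pattern over stages. Whether loci with different names stand for the same gene was not tested, so 147 need not be a count of separate genes. The genes ranked 70 and 98, both high in F1 and M, had different locus names and similar stage values, 4.78 and 4.49 in F1 and 4.03 and 3.81 in M. Among the gene models with 3 or more probes, 30 more lay at the loci of 16 of the genes. None of the 30 had F1 in the high set and F2 and F3 in the low set, compared with 10.48% of all genes, and F1 was above F2 and F3 in 10 of them (33.33%, compared with 42% of all genes). Their F1 excess had a median of -0.16 log2 units, compared with -0.10 over all genes. These counts leave out the 150 genes themselves, which were chosen for the pattern.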

How the data were processed

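The authors deposited the scanner output of 20 arrays, with signal intensity per spot, read by Feature Extraction (10.5 per the labels, 10.5.1.1 per the file headers), which had corrected each spot for background. They also deposited a matrix of log2 values, quantile normalized and set relative to each probe's median. The genes were chosen on this matrix (median over probes of stage means). Levels and tests used log2 of the processed signal, without spots marked as outliers, averaged per probe, quantile normalized, and summarised as the median over the probes of a gene. These levels matched the matrix with r of at least 0.9998. A gene was tested if at least 2 probes exceeded percentile 95 of the random probes in every array of a stage. One limma 3.58.1 fit (R 4.3.3) covered 20 arrays in 7 groups, with p-values adjusted over 20941 genes. Tables and figures used Python 3.11.15, pandas 2.3.3, numpy 2.4.6 and matplotlib. The fit and the choice of genes were tested on simulated data. The paper's methods name a t-test on single probes, with a change required against every other stage. As an alternative, a t-test was run on the gene values, 1 pair of stages at a time. It was not the main test, since 2 or 3 arrays give it few degrees of freedom.

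The 2 genes named were the widest gap and the next, by a rule that allows 2 identifiers where the sources used here give no annotation. The gene lists and markers intended for annotated genes could not be applied, because 0 of 41316 gene models matched the table of names. Genes and comparisons were chosen with earlier results of these data known. Alternatives changed the normalization, background, filter, spots, summary over probes, blocks, test and arrays. Precision was limited by 2 or 3 arrays per stage.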

Additional observations from a re-analysis of the deposited data

How the results depend on the processing

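Choosing the genes under other settings kept most of them. With values rebuilt from the scanner output 147 of the 150 were chosen again, with a shift to the 75th percentile 128, with the mean over probes 131, and with detection in all 3 F1 arrays 148. Leaving out 1 array of F1, F2 or F3 kept 129 to 147, and leaving out the 4 arrays of slide 1, a setting added after seeing the data, kept 119.

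For the genes called in the 4 comparisons (112 for E3 against E1, 63 for J against E3, 29 for J against M and 3 for F3 against F2), counts moved by more than 1.5 times as follows, and the cause was not tested. For J against M it was 16 with the 75th percentile shift, 44 with normexp background correction and 18 without the filter. The count was 11 with the t-test on gene values at an unadjusted p under 0.001, and 12 without slide 1. For F3 against F2 it was 1 with normexp (higher in F3) and 1 without the filter. It was 0 with a fit per probe and 0 with slide as a block. The t-test on gene values called 1 and 0 (adjusted and unadjusted). Without slide 1 there were 11, of which 10 were higher in F2. For E3 against E1 it was 59 and 10 with this t-test, and 72 without slide 1. For J against E3 it was 14 with this t-test at an unadjusted p under 0.001. With 1 array left out, counts ranged from 97 to 116 for E3 against E1, 46 to 73 for J against E3, 2 to 35 for J against M and 0 to 9 for F3 against F2, where the 3 called without F3 replicate 2 and the 1 without F2 replicate 2 were higher in F3.

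The medians of the 3 comparisons other than F3 against F2 stayed positive under every setting run. That of F3 against F2 ranged from -0.57 to -0.12 over the other settings and from -1.32 to 0.064 with 1 array left out. The 75th percentile shift moved the median of all genes by -0.27 in J against E3, -0.43 in J against M and -0.21 in E3 against E1. Under it the F1-high genes had J minus F1 at 0.33, compared with -0.74 over all genes, and M minus F1 at -0.58, compared with 0.36.

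Same-numbered arrays on average deviated together no more than others. Their mean r was -0.023 over 57 pairs (range -0.327 to 0.267), compared with 0.014 over 114 pairs of other numbers. Such means cannot decide whether the numbers pair samples, so the replicate block was run as an alternative. With the replicate block, 112, 59, 22 and 2 genes were called for E3 against E1, J against E3, J against M and F3 against F2.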
